A study of Mus musculus with 6 samples.

Results

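The genes described here are the glutathione transferases and the antioxidant enzymes of the mouse prostate. Members were taken from the deposited table by their symbols, and 54 of its 34745 genes were found. They comprise 24 glutathione transferases (GSTs) of the alpha, mu, pi, theta, omega, kappa, zeta and microsomal classes, and 30 genes of glutathione synthesis and reduction, the glutaredoxins, peroxiredoxins and thioredoxin system, the superoxide dismutases, catalase, haem oxygenases, the quinone reductase Nqo1, and the regulators Nfe2l2 and Keap1. RNA of prostate tissue was sequenced from 6 male C57BL/6 mice aged 6 to 8 weeks at the start. In the T + E2 group, 3 mice carried subcutaneous pellets of testosterone and oestradiol for 12 weeks, a model of benign prostatic hyperplasia. The 3 CON mice had an incision of the back skin but no pellet. Pellets were renewed monthly, with the operation repeated in CON, and lidocaine served as the local anaesthetic. Each library came from 1 mouse, and the sources used here do not say which prostate lobes were taken.

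Glutathione is a small thiol that cells use in bulk to hold proteins in the reduced state and to detoxify reactive compounds. GSTs join it to electrophiles such as the aldehydes of oxidised lipids, while peroxiredoxins and glutathione peroxidases use thiols to remove peroxides, and glutathione reductase and the thioredoxin reductases restore these thiols with NADPH. Many of these genes are targets of the transcription factor Nrf2 (encoded by Nfe2l2), which Keap1 holds in check until electrophiles or oxidants release it, and the prostate epithelium, a secretory tissue under androgen control, is known for pi class GST expression that is lost in human prostate cancer.

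Reads counted on genes totalled 14816146 to 16555549 per mouse, and the members took 0.477 to 0.656% of them. The CON replicate 2 library stood apart, because seminal vesicle transcripts made up 1.06% of its counts, against 0.0638% in T + E2 replicate 2 and at most 0.000418% in the other 4 mice. Its fat marker level, a summed FPKM (fragment counts scaled by gene length and library size) of 491, was also above the 43.6 to 123 of the other mice. Counts of members are therefore also given without these libraries. Other marker lists moved with the treatment. Of all tested genes, 10.4% passed the adjusted p upwards and 9.25% downwards. All 5 tested red cell genes were higher in T + E2, with a summed FPKM of 98.1 to 337 against 41.0 to 50.7. All 3 tested urothelium genes passed the adjusted p upwards, with a summed FPKM of 1020 to 1190 against 299 to 475. Upk1a held most of this sum, with a mean of 983 FPKM in T + E2 and 290 in CON. Upk2 was at 4.09 and 0.907 FPKM. Upk3a and Krt20 did not pass the filter on low counts. They had 99 and 120 counts in T + E2 replicate 2 and at most 6 in any other mouse. Of the macrophage genes 3 of 6 passed upwards, with 108 to 165 against 76.5 to 98.4. Of 11 luminal and secretory genes 2 passed upwards and 4 downwards, with a summed FPKM of 26100 to 26600 against 30100 to 37400 in CON, and 2 of 6 smooth muscle genes passed downwards, with 1370 to 1400 against 1610 to 1930. In the epididymis list 1 gene was tested, Adam7, and was higher, with 158, 81 and 139 counts under T + E2 and 0 in every CON mouse. Lcn5, Lcn8, Lcn9 and Gpx5 had 0 counts in every mouse. Crisp1 had 2, 13 and 0 counts in CON mice and 0, 3 and 0 under T + E2. The summed level of the list was 1.22 to 2.33 against at most 0.618. The luminal genes Krt8 and Hoxb13 were present in every mouse and did not pass. In the same list Pbsn, Tgm4, Cd24a and Krt18 passed downwards, with log2 fold changes of -3.29, -2.91, -1.3 and -0.54. Msmb and Spink1 passed upwards, with log2 fold changes of 1.1 and 0.72. The luminal and secretory list held 5.5 to 6.54% of counts in CON mice and 2.23 to 2.73% in T + E2 mice. The summed levels of basal, fibroblast, endothelial, B and plasma cell, T cell, fat, seminal vesicle and skeletal muscle genes overlapped between the groups. The part of these shifts in the members' changes was not tested, and in whole tissue a change in the number of cells of a type and a change in RNA per cell cannot be told apart.

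Of the 54 members, 51 had enough counts to be tested. In edgeR (quasi-likelihood F test, p adjusted after Benjamini and Hochberg over all 15580 tested genes) 5 members were upregulated with an adjusted p under 0.05 and a log2 fold change over 1, namely Gsr, Gsta2, Mgst1, Gsta4 and Gsto1. These are 9.8% of the tested members, where 4.27% of all tested genes rose by the same rule. Prdx6 was the 1 member downregulated past both thresholds, where 3.38% of all genes were. On adjusted p alone, 14 members were higher (10.4% of all genes were) and 4 were lower (9.25% of all genes were). The remaining 33 did not pass, although 10 of them had an unadjusted p under 0.05. The 3 mice of one group did not overlap with those of the other for 30 tested members, 18 of them with T + E2 above CON and 12 with T + E2 below, which is 58.8% against 40.7% of all tested genes. The members' median log2 fold change was 0.12, against -0.0021 for all tested genes. Without CON replicate 2, the 6 genes past both thresholds remained, but 9 members were higher and 2 lower on adjusted p alone, the calls of Gstk1, Hmox1, Srxn1, Txnip, Txnrd1, Glrx and Gstm1 being lost. Each of these calls was also lost with at least 1 other mouse left out. Without replicate 2 of both groups, 7 were higher and 2 lower, the calls of Gstp1 and Prdx1 being lost too.

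**Figure D1:**
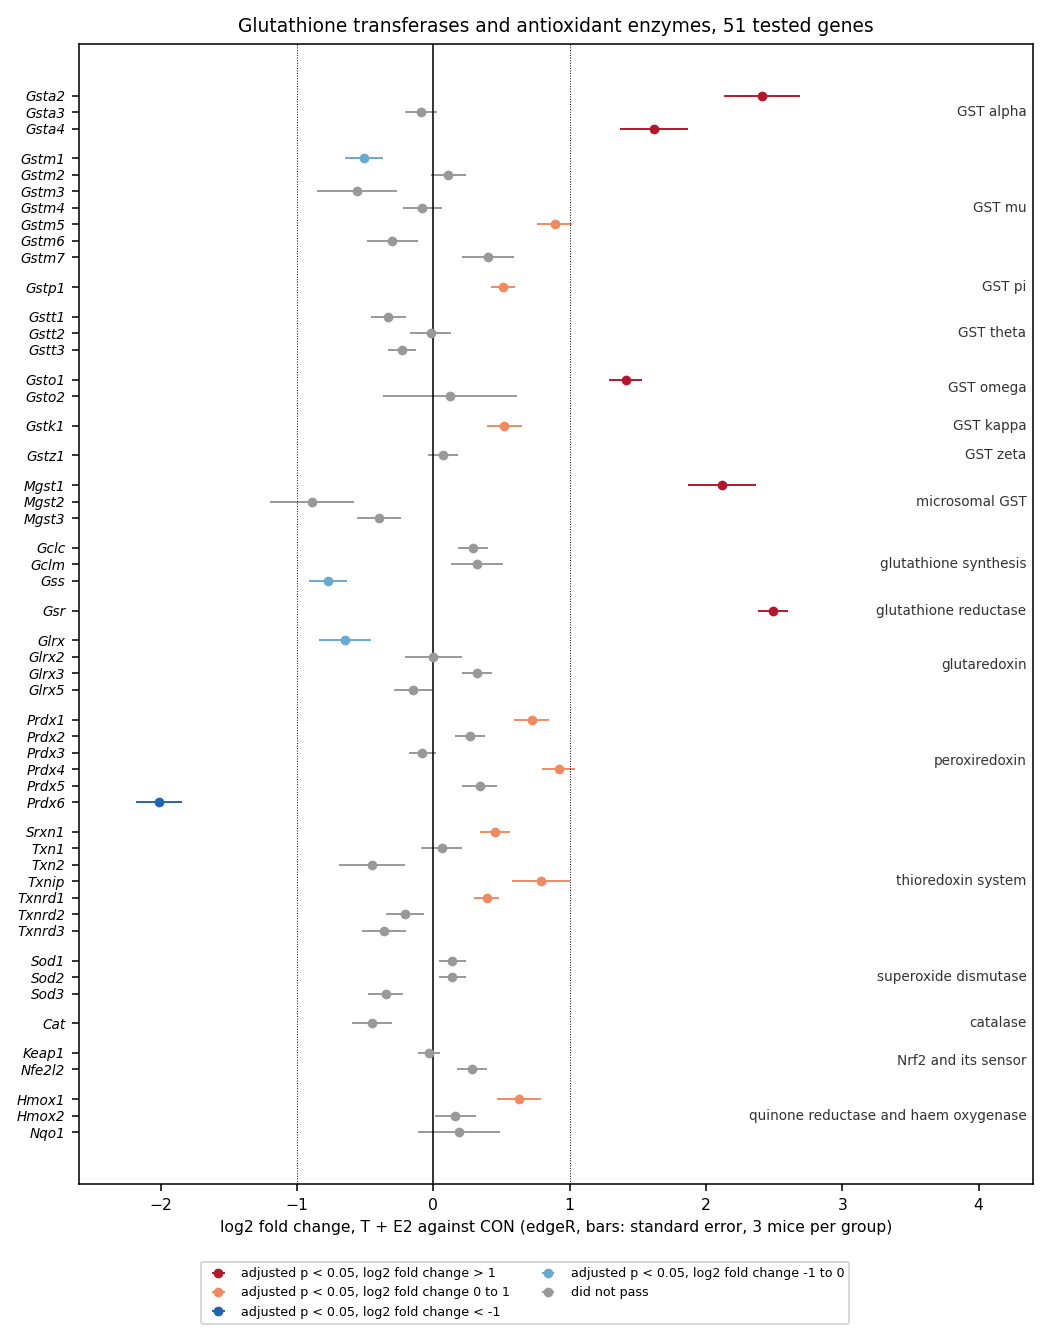
The log2 fold change of each of the 51 tested members, T + E2 against CON, is plotted on the horizontal axis with its standard error (edgeR, 3 mice per group), with the genes grouped by role. Most members lie between -1 and 1, while Gsr (2.49) and Prdx6 (-2.01) are at the ends.

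The largest change among the members was that of Gsr, glutathione reductase, which returns oxidised glutathione to its reduced form with NADPH. Its normalised level was 39.8, 37.5 and 31.9 CPM (counts scaled to a common library size, with TMM factors) in CON mice and 217, 195 and 200 CPM under T + E2. The groups were far apart, and the T + E2 mice differed little among themselves. The mean rose 5.6 times, a log2 fold change of 2.49 ± 0.11 (SE, n = 3 per group, edgeR adjusted p = 1.37e-05). Gsr lies on chromosome 8 (chr8:33652523-33698163, GRCm38, plus strand).

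Of the 3 genes that make glutathione, 1 was lower and the other two did not pass the test. Gss, glutathione synthetase, which adds the last amino acid, was measured at 45.4, 35.9 and 53.4 CPM in CON mice and 25.9, 27.1 and 26.0 CPM under T + E2. Every T + E2 mouse was below every CON mouse, and the log2 fold change was -0.77 ± 0.14 (SE, edgeR adjusted p = 0.0082). Its annotated exons share 395 of 5915 bases with Acss2 on the other strand, and the strand setting of the counting is not given in the sources used here. Gclc and Gclm, the catalytic and modifier subunits of the rate-limiting glutamate-cysteine ligase, had log2 fold changes of 0.29 (SE 0.11, adjusted p = 0.105) and 0.32 (SE 0.19, adjusted p = 0.262), neither past the test. Gclm was at 77.4 CPM in CON replicate 1 and at 45.1 and 51.3 CPM in the other two, which spans the T + E2 range of 69.7 to 76.0 CPM. Without CON replicate 1 Gclm passed upwards, with a log2 fold change of 0.58 (edgeR adjusted p = 0.0138).

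Among the GSTs, 7 of 21 tested genes (33.3%, against 10.4% of all genes) were higher on adjusted p and 1 (4.76%, against 9.25%) was lower, and 4 of the 5 members upregulated past both thresholds were GSTs. Gsta4, the alpha enzyme known for conjugating the lipid peroxidation aldehyde 4-hydroxynonenal, was measured at 13.6, 25.7 and 17.6 CPM in CON mice and 48.4, 75.6 and 51.1 CPM under T + E2. Replicate 2 was the highest of each group, and the groups did not overlap. The log2 fold change of Gsta4 was 1.62 ± 0.25 (SE, edgeR adjusted p = 0.00369).

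Gsta2, an alpha class enzyme of broad substrate range, was measured at 3.71, 1.64 and 2.51 CPM in CON mice and 14.7, 15.8 and 11.4 CPM under T + E2. It was a low-level gene in CON and stayed below Gsta4 in T + E2 mice, with an FPKM of 9.3 ± 1.42 against 60.2 ± 16.0 (SD, n = 3). Its log2 fold change was 2.41 ± 0.28 (SE, edgeR adjusted p = 0.00107). Gsta2, Gsta4 and Gsta1 lie within 164 kb on chromosome 9 (chr9:78191966-78355788, GRCm38), whereas Gsta3, which had a log2 fold change of -0.09 (adjusted p = 0.648), lies on chromosome 1.

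Reads of Gsta1 and Gsta2 are hard to separate, since 97.9% of the bases aligned between their coding sequences are identical. Positions 548 to 667 of the coding sequences (GENCODE M21, Gsta1 on the plus and Gsta2 on the minus strand), a stretch in which 6 bases differ, are shown with the differing bases in capitals.
Gsta1: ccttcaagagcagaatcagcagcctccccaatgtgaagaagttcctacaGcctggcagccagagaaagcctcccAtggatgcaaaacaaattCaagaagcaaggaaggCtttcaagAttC
Gsta2: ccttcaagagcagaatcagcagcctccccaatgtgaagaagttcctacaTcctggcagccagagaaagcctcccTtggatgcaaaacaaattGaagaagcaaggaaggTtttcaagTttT
Gsta1 was below the filter, with 4, 1 and 0 counts in CON mice and 8, 10 and 6 counts under T + E2. When the counts of Gsta1, Gsta2 and the near-identical Gm10639 were summed, the sum was 66, 26 and 42 in CON mice and 241, 294 and 193 under T + E2. The sum had a log2 fold change of 2.44 ± 0.31 (SE, edgeR adjusted p = 0.0015), close to that of Gsta2 alone. A further copy, Gm3776, with 99.7% identity to Gsta1 was not analysed here.

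Mgst1, a membrane-bound transferase of the endoplasmic reticulum and outer mitochondrial membrane, was measured at 21.5, 31.1 and 19.1 CPM in CON mice and 109, 129 and 74.1 CPM under T + E2. The lowest T + E2 mouse was above the highest CON mouse, and the log2 fold change was 2.12 ± 0.25 (SE, edgeR adjusted p = 0.000972). Mgst1 lies at chr6:138140316-138156755 (GRCm38, plus strand). The other microsomal enzymes did not pass. Mgst2, a leukotriene C4 synthase of low level, had a log2 fold change of -0.89 (SE 0.31, adjusted p = 0.0818) and Mgst3 one of -0.40 (SE 0.16, adjusted p = 0.114).

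Gsto1, an omega class enzyme that removes glutathione from proteins and reduces dehydroascorbate, was measured at 61.1, 65.6 and 69.2 CPM in CON mice and 146, 188 and 189 CPM under T + E2. The gene lies at chr19:47854970-47864790 (GRCm38, plus strand). The CON mice were tightly grouped and the log2 fold change was 1.41 ± 0.12 (SE, edgeR adjusted p = 0.000243). Its neighbour Gsto2, within the same 31 kb of chromosome 19, was measured at 0.331 to 1.33 CPM across all 6 mice, with a log2 fold change of 0.12 (adjusted p = 0.887).

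**Figure D2:**
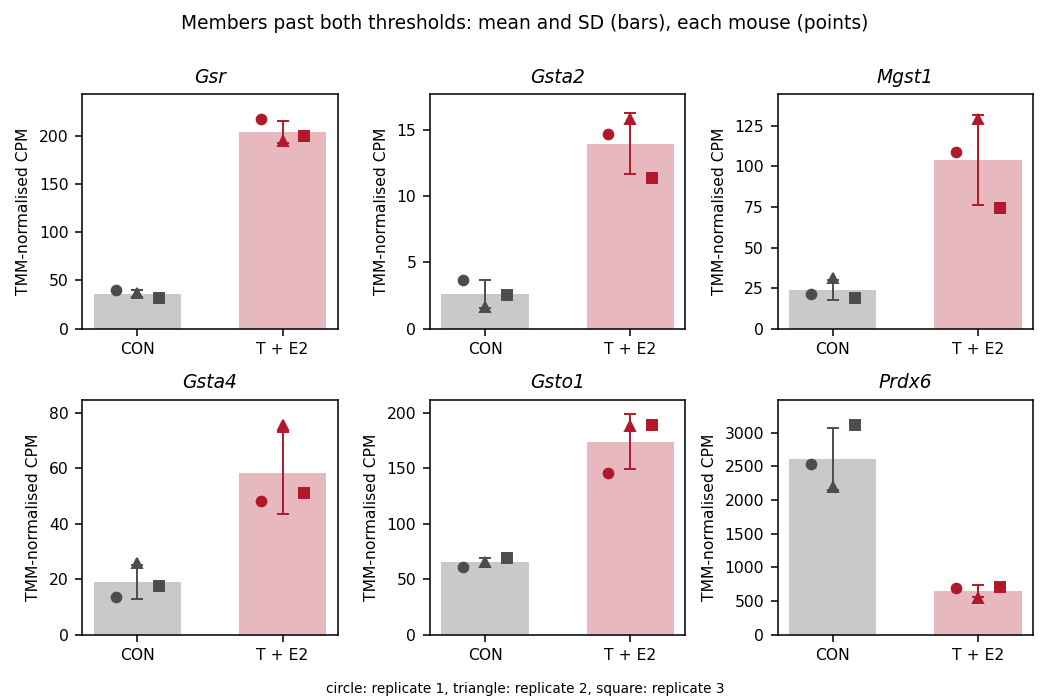
TMM-normalised CPM of the 6 members past both thresholds is plotted on linear axes from 0, with bars for the group mean, error bars for the SD and a point for each of the 3 mice per group. Groups do not overlap in any of the 6 panels, and the Gsr points of the T + E2 mice lie between 195 and 217 CPM.

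The 7 mu class genes lie within 149 kb of chromosome 3 (chr3:107895821-108044894, GRCm38) and moved in both directions. Gstm5 was higher, at 34.2 ± 5.6 CPM compared with 18.5 ± 1.04 CPM in CON (SD, n = 3), with a log2 fold change of 0.89 (SE 0.13, edgeR adjusted p = 0.00317). The annotated antisense gene 4933431E20Rik covers 178 of its 1278 exon bases and was counted at 17 to 182 in the 6 mice. Gstm1 was lower, falling to 124 ± 17.3 CPM from 178 ± 26.5 CPM, with a log2 fold change of -0.51 (SE 0.14, adjusted p = 0.0402), a call that was lost without CON replicate 2 (adjusted p = 0.121). This call was also lost without CON replicate 1, T + E2 replicate 1 or T + E2 replicate 3. The other 5 mu genes did not pass, Gstm2 among them, which was the most abundant GST in both groups (81.2 ± 11.9 FPKM in CON and 85.0 ± 6.21 FPKM in T + E2) and had a log2 fold change of 0.11 (adjusted p = 0.595).

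Gstp1, the pi class enzyme best known in the prostate, was measured at 37.9, 41.3 and 44.3 CPM in CON mice and 58.2, 57.9 and 59.6 CPM under T + E2. The T + E2 mice were nearly identical and all above the CON mice, with a log2 fold change of 0.51 ± 0.09 (SE, edgeR adjusted p = 0.00664). Its neighbour Gstp2 has 12 differing bases in 633 of coding sequence, 6 of them among the first 120 bases, which are shown with the differing bases in capitals (GENCODE M21, chromosome 19, minus strand) because they are what can tell the reads of the pair apart.
Gstp1: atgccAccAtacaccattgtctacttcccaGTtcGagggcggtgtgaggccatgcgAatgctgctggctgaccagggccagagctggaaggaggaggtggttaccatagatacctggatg
Gstp2: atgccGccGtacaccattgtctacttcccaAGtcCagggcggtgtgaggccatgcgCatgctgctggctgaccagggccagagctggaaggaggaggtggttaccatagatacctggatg
Gstp2 was below the filter with 7 to 13 counts per mouse, and the summed counts of the pair had a log2 fold change of 0.50 (adjusted p = 0.00662).

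Gstk1, a mitochondrial and peroxisomal transferase, rose from 33.9 ± 3.37 to 48.7 ± 6.65 CPM (SD, n = 3), a log2 fold change of 0.52 (SE 0.13, edgeR adjusted p = 0.025). The theta genes Gstt1, Gstt2 and Gstt3 and the zeta gene Gstz1, an isomerase of tyrosine breakdown, did not pass, with log2 fold changes between -0.33 and 0.07. Gstt4 had 0 counts in all 6 mice, which allows a level of up to 0.181 to 0.202 CPM per mouse.

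The GST transcripts were also summed by class on the FPKM scale, which divides counts by a gene model length. These lengths can differ from the annotated exon bases, with 1665 against 5088 for Gstz1 and 2494 against 1278 for Gstm5. Shares and places of different genes and classes rest on these lengths. Summed over the 24 genes, the FPKM was 422, 515 and 459 in CON mice and 538, 621 and 554 under T + E2, a mean of 465 ± 46.9 against 571 ± 44.4 (SD, n = 3). The alpha class was at 26.0 ± 5.84 FPKM in CON and 73.7 ± 17.4 FPKM in T + E2, which was 5.55 and 12.8% of the GST sum. The omega class was at 27.0 ± 1.67 and 69.6 ± 11.6 FPKM, or 5.84 and 12.2%. In these 3 sums every T + E2 mouse was above every CON mouse, and the exact two-sided permutation test gave p = 0.1, the smallest that 3 against 3 mice allow. The mu class was at 161 ± 20.7 and 151 ± 7.49 FPKM (exact permutation p = 0.5), and its share was 34.6 and 26.5%. Theta was at 73.2 ± 6.71 FPKM in CON and 62.6 ± 1.48 FPKM in T + E2 without overlap (exact permutation p = 0.1). Among single GSTs, Gsto1 held the seventh place by FPKM in CON and the third in T + E2, Gsta4 the ninth and the fifth, and Gstm1 the third and the sixth.

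**Figure D3:**
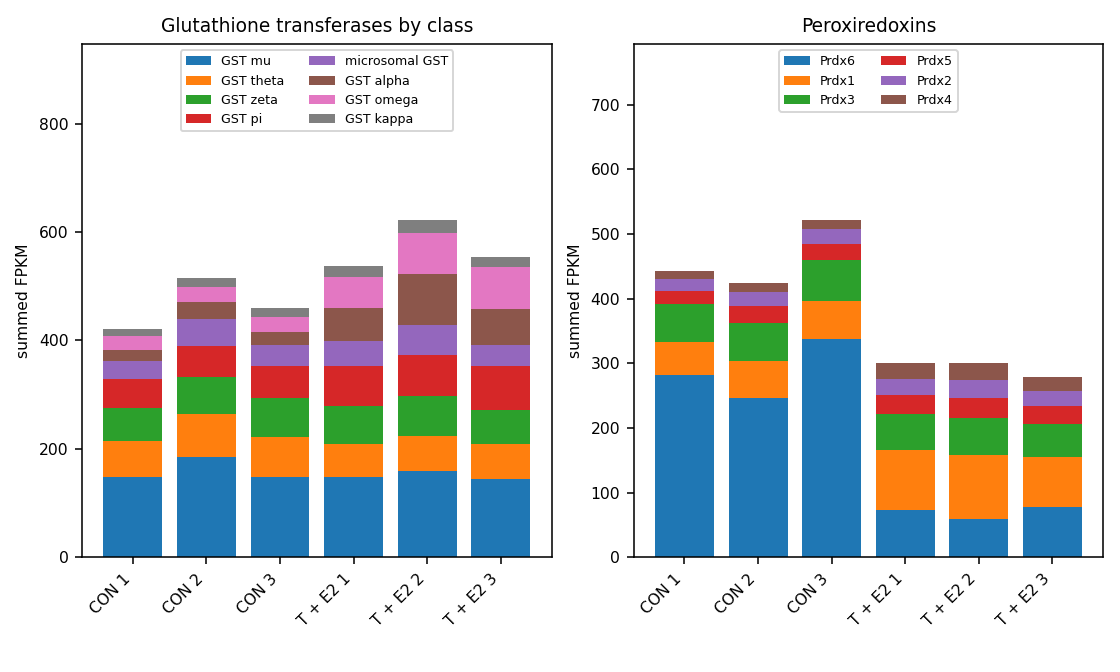
Summed FPKM per mouse (vertical axis, from 0) is stacked by GST class on the left and by peroxiredoxin gene on the right. The alpha and omega layers are taller in each T + E2 mouse, with 12.8 and 12.2% of the GST sum on average, and the Prdx6 layer is 288 FPKM high on average in CON and 70.0 FPKM in T + E2.

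The 6 peroxiredoxins moved in both directions. Prdx6, which removes phospholipid hydroperoxides with glutathione as its reductant and has phospholipase activity, was measured at 2530, 2190 and 3110 CPM in CON mice and 699, 542 and 706 CPM under T + E2. The highest T + E2 mouse was far below the lowest CON mouse, and the log2 fold change was -2.01 ± 0.17 (SE, edgeR adjusted p = 0.000188), the mean in CON being 4.02 times that in T + E2. In the CON mice Prdx6 alone held 0.225 to 0.309% of all counts and ranked 93 to 125 among all genes by FPKM. In the T + E2 mice it held 0.0538 to 0.0714% and ranked 429 to 623. Adding the counts of its copy Prdx6b left the log2 fold change at -2.01. Prdx6 lies at chr1:161240112-161251219 (GRCm38, minus strand).

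Prdx4, the secretory pathway peroxiredoxin, was measured at 27.8, 33.3 and 34.0 CPM in CON mice and 62.3, 64.5 and 52.9 CPM under T + E2 (log2 fold change 0.92, SE 0.12, edgeR adjusted p = 0.00161). Prdx1, the abundant cytosolic form, was measured at 204, 232 and 241 CPM in CON mice and 395, 409 and 309 CPM under T + E2 (log2 fold change 0.72, SE 0.13, adjusted p = 0.00746). Both genes showed no overlap between the groups, but without replicate 2 of both groups Prdx1 had an adjusted p of 0.0653. The cytosolic Prdx2, which red cells also carry, and the mitochondrial Prdx3 and Prdx5 did not pass, with log2 fold changes of 0.27, -0.08 and 0.34. Summed without Prdx6, the peroxiredoxins were at 174 ± 12.2 FPKM in CON and 223 ± 20.2 FPKM in T + E2 (SD, n = 3), whereas the sum of all 6 was at 463 ± 51.7 against 293 ± 11.8 FPKM, each without overlap (exact permutation p = 0.1). Prdx6 made up 62.1% of this sum in CON and 24.0% in T + E2, where Prdx1 held the first place by FPKM with 30.4%. This order rests on the gene model lengths, 9135 bases for Prdx6 and 4089 for Prdx1. By mean CPM Prdx6 was still above Prdx1 in T + E2, at 649 against 371.

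In the thioredoxin system, 3 of 7 genes were higher (42.9%, against 10.4% of all genes), and each of these 3 calls was lost without CON replicate 2. Txnrd1, the cytosolic thioredoxin reductase, rose from 72.2 ± 2.36 to 94.5 ± 5.36 CPM (SD, n = 3; log2 fold change 0.39, SE 0.09, edgeR adjusted p = 0.0188). Srxn1, sulfiredoxin, which repairs overoxidised peroxiredoxins, rose from 22.8 ± 0.562 to 31.1 ± 3.43 CPM (log2 fold change 0.45, SE 0.11, adjusted p = 0.0224). Txnip, which binds and inhibits thioredoxin, was the third most abundant member by FPKM and rose from 551 ± 147 to 950 ± 153 CPM (log2 fold change 0.79, SE 0.21, adjusted p = 0.0349). Without CON replicate 2 the adjusted p was 0.0764 for Txnrd1, 0.0646 for Srxn1 and 0.0707 for Txnip. Txnrd1 also lost the call without CON replicate 3 or T + E2 replicate 1. Srxn1 lost it without CON replicate 1, CON replicate 3 or T + E2 replicate 2. Txnip lost it without CON replicate 1, T + E2 replicate 2 or T + E2 replicate 3. Thioredoxin itself, Txn1, was at 70.2, 71.0 and 101 CPM in CON mice and 82.6, 90.3 and 79.1 CPM under T + E2 (log2 fold change 0.06, adjusted p = 0.828). Txn2, Txnrd2 and Txnrd3 did not pass either, with log2 fold changes of -0.45, -0.21 and -0.36. Of the glutaredoxins, Glrx was lower at 5.03 ± 0.863 against 7.92 ± 0.999 CPM (log2 fold change -0.65, SE 0.19, adjusted p = 0.0487), which was just inside the threshold, and Glrx2, Glrx3 and Glrx5 had log2 fold changes between -0.15 and 0.32 without passing.

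The superoxide dismutases, which turn superoxide into hydrogen peroxide, did not pass the test. Sod1, the cytosolic copper and zinc enzyme and the highest member by FPKM, was at 400 ± 26.7 FPKM in CON and 430 ± 21.7 FPKM in T + E2 (SD, n = 3; log2 fold change 0.14, SE 0.10, edgeR adjusted p = 0.348). That place rests on the gene model lengths behind the FPKM, 646 bases for Sod1 and 9135 for Prdx6. By mean CPM Prdx6 was above Sod1, at 2610 against 256 in CON and 649 against 282 in T + E2. The mitochondrial Sod2 also had a log2 fold change of 0.14 (SE 0.10, adjusted p = 0.342), and the extracellular Sod3 had one of -0.35 (SE 0.13, adjusted p = 0.0924). Cat, catalase, which breaks down hydrogen peroxide, was measured at 60.9, 87.5 and 60.4 CPM in CON mice and 50.7, 50.2 and 52.3 CPM under T + E2. The groups did not overlap, CON replicate 2 was the highest, and the log2 fold change of -0.45 (SE 0.15) had an edgeR adjusted p of 0.0726, while DESeq2 gave an adjusted p of 0.0389.

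Nfe2l2, which encodes Nrf2, was measured at 55.4, 66.4 and 60.6 CPM in CON mice and 74.9, 66.7 and 80.5 CPM under T + E2. The groups were separated by the small gap between 66.4 and 66.7 CPM, and the log2 fold change of 0.28 (SE 0.11) did not pass (edgeR adjusted p = 0.107). Keap1 was at 87.6, 81.4 and 79.8 CPM in CON mice and 81.3, 81.6 and 80.3 CPM under T + E2 (log2 fold change -0.03, SE 0.08, adjusted p = 0.813). Nqo1, a standard reporter of Nrf2 activity, stayed at 2.2 to 4.93 CPM in all mice (log2 fold change 0.19, SE 0.30, adjusted p = 0.693). Hmox1, the inducible haem oxygenase, which macrophages that clear red cells also express, was at 11.2, 10.3 and 10.8 CPM in CON mice and 15, 20.5 and 14.5 CPM under T + E2 (log2 fold change 0.63, SE 0.16, adjusted p = 0.0274). Its highest value was in T + E2 replicate 2, the mouse with the highest summed red cell (337 FPKM) and macrophage (165 FPKM) markers. The part of these cells in the Hmox1 level was not tested. Without that mouse the log2 fold change was 0.46 (adjusted p = 0.0613), and the call was also lost without any 1 of the CON mice (adjusted p = 0.0554, 0.0772 and 0.078). Hmox2, the constitutive form, had a log2 fold change of 0.16 (adjusted p = 0.478). Hmox2, like Gstz1, Prdx2, Prdx5, Txnip and Txnrd2, shares exon bases with a gene on the other strand.

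Promoters were searched because Nrf2 with its small Maf partners binds the antioxidant response element, taken here as TGACNNNGC on either strand. In RefSeq windows from 250 bases before to 50 bases after the gene start (GRCm38.p6), it was found in 10 of the 47 members with a window (21.3%) and in 3781 of 27025 genes (14%). A gene can have several windows, and 1 with the element was enough. Of the tested members with a window, it was present in 5 of 11 that were higher on adjusted p, in 0 of 3 that were lower, and in 5 of 30 that did not pass. Windows were not given for Gsr, Gsta4, Hmox1, Prdx6, Gclc, Gstt2 and Sod3. The stretches that hold the element in the 5 higher members are printed 5′ to 3′ on the gene's strand, with the element in capitals, to show that its core came with different centres and in both orientations.
Mgst1 (chr6:138140461-138140489, plus strand): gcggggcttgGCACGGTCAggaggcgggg
Gstm5 (chr3:107895802-107895830, plus strand): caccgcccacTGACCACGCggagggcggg
Prdx1 (chr4:116685456-116685484, plus strand): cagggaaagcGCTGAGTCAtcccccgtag
Txnrd1 (chr10:82859104-82859132, plus strand): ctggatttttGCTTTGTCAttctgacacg
Srxn1 (chr2:152105542-152105570, plus strand): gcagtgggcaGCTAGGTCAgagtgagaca
For comparison, these are the stretches of Gclm and Nfe2l2, which did not pass.
Gclm (chr3:122245413-122245441, plus strand): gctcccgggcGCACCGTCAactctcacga
Nfe2l2 (chr2:75704885-75704913, minus strand): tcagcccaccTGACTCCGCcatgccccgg
The windows of Gsta2 and Gsto1 did not hold these letters. The full oestrogen response element GGTCANNNTGACC was in 0 of the 47 members with a window and in 20 genes overall (0.074%), and the full androgen response element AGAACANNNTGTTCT was in 0 of these 47 members and in 3 genes (0.0111%). A match in such a window describes its letters only.

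The rest of the pathway was described with 105 genes in 8 lists, of which 99 were tested. Past both thresholds, 9 were upregulated (9.09%, against 4.27% of all genes) and 3 downregulated (3.03%, against 3.38%), the 3 becoming 5 without CON replicate 2. On adjusted p alone 23 were higher (23.2%, against 10.4%) and 10 lower (10.1%, against 9.25%). Their median log2 fold change was 0.12. The glutathione peroxidases, which reduce peroxides with glutathione and so make the oxidised form that Gsr restores, held the widest contrast. Gpx3, the secreted plasma form, was measured at 631, 818 and 799 CPM in CON mice and 61600, 48100 and 48100 CPM under T + E2 (log2 fold change 6.13, SE 0.18). Gpx1, the main cytosolic form, was measured at 213, 228 and 251 CPM in CON mice and 85.8, 108 and 95.9 CPM under T + E2 (log2 fold change -1.25, SE 0.11, edgeR adjusted p = 0.000298). The cytosolic Gpx1 and Prdx6 were both lower while the secreted Gpx3 was higher, and of the other 4 tested peroxidases Gpx8 also passed upwards, with a log2 fold change of 0.75. The cytosolic Prdx1, however, was higher (log2 fold change 0.72), and the cytosolic Prdx2 did not pass (0.27).

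Among 13 genes of cystine uptake and glutathione turnover, 4 passed upwards (30.8%, against 10.4% of all genes) and 3 downwards (23.1%, against 9.25%). Slc7a11, the cystine carrier that supplies cysteine for glutathione, was measured at 6.69, 3.88 and 4.09 CPM in CON mice and 17.2, 21.8 and 18.8 CPM under T + E2 (log2 fold change 1.98, SE 0.22, edgeR adjusted p = 0.000841). Its heavy chain partner Slc3a2, which also serves other amino acid carriers and was picked after its values were seen, passed downwards, with a log2 fold change of -0.52. Chac1, which degrades glutathione within cells, had a log2 fold change of -2.61 (SE 0.54, adjusted p = 0.0134), with 49.9 CPM in CON replicate 1, 13.5 and 13.0 CPM in the other CON mice, and 3.41 to 4.57 CPM under T + E2. Without CON replicate 1 the log2 fold change of Chac1 was -1.67 (adjusted p = 0.00223), and without T + E2 replicate 2 the call was lost (-2.48, adjusted p = 0.0623). Ggt6, a gamma-glutamyltransferase relative of low level, had a log2 fold change of 1.79 and the aminopeptidase Lap3 one of -0.94.

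Of 9 genes that supply NADPH, 3 passed upwards (33.3%, against 10.4% of all genes) and 1 downwards (11.1%, against 9.25%). G6pdx, glucose-6-phosphate dehydrogenase, the entry enzyme of the pentose phosphate pathway, was measured at 86.5, 87.9 and 90.5 CPM in CON mice and 184, 173 and 149 CPM under T + E2 (log2 fold change 0.93, SE 0.10, edgeR adjusted p = 0.000685). The log2 fold change was 0.67 for the malic enzyme Me1, 0.51 for the mitochondrial transhydrogenase Nnt and -0.50 for the mitochondrial isocitrate dehydrogenase Idh2. Of 6 tested exporters of glutathione conjugates 1 passed downwards (16.7%, against 9.25% of all genes), Abcc3, with a log2 fold change of -0.87. Of 14 tested relatives of the transferases and of the membrane enzymes of the Mgst family, 3 passed upwards (21.4%, against 10.4%) and 1 downwards (7.14%, against 9.25%), with Ptges, the inducible prostaglandin E synthase, at a log2 fold change of 1.28 and Clic5, a chloride channel protein with a GST fold, at one of -2.64.

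Partners and further targets of Nrf2 passed upwards in 3 of 21 genes (14.3%, against 10.4% of all genes), namely Akr1b8, Cbr3 and Blvrb, with log2 fold changes of 0.59, 0.56 and 0.41. Among 13 genes of protein repair and copper supply, 2 passed upwards (15.4%, against 10.4% of all genes) and 3 downwards (23.1%, against 9.25%), the largest log2 fold changes being those of Park7 (0.67) and Sesn2 (-0.58). Sources of superoxide and peroxide passed upwards in 6 of 17 tested genes (35.3%, against 10.4% of all genes). Qsox1, a sulfhydryl oxidase of the secretory pathway that releases hydrogen peroxide, was measured at 99.3, 182 and 107 CPM in CON mice and 1550, 1580 and 1450 CPM under T + E2 (log2 fold change 3.56, SE 0.24, edgeR adjusted p = 6.8e-05). Duox1, a dual oxidase that also releases peroxide, had 0, 1 and 3 counts in CON mice and 19, 21 and 32 counts under T + E2, and its maturation factor Duoxa1 had a log2 fold change of 3.10. Noxa1, an activator of NADPH oxidase, had one of 3.22, and of 4.14 without CON replicate 1. Of the pathway genes named here, Gpx8, Chac1, Ggt6, Slc3a2, Idh2, Akr1b8, Blvrb and Sesn2 each lost the call on adjusted p with at least 1 of the mice left out. Blvrb lost it whichever mouse was left out (edgeR adjusted p from 0.0575 to 0.121). Akr1b8 and Gpx8 kept it only without T + E2 replicate 3, and Sesn2 only without T + E2 replicate 1. Ggt6 kept it only without T + E2 replicate 2 or replicate 3.

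**Figure D4:**
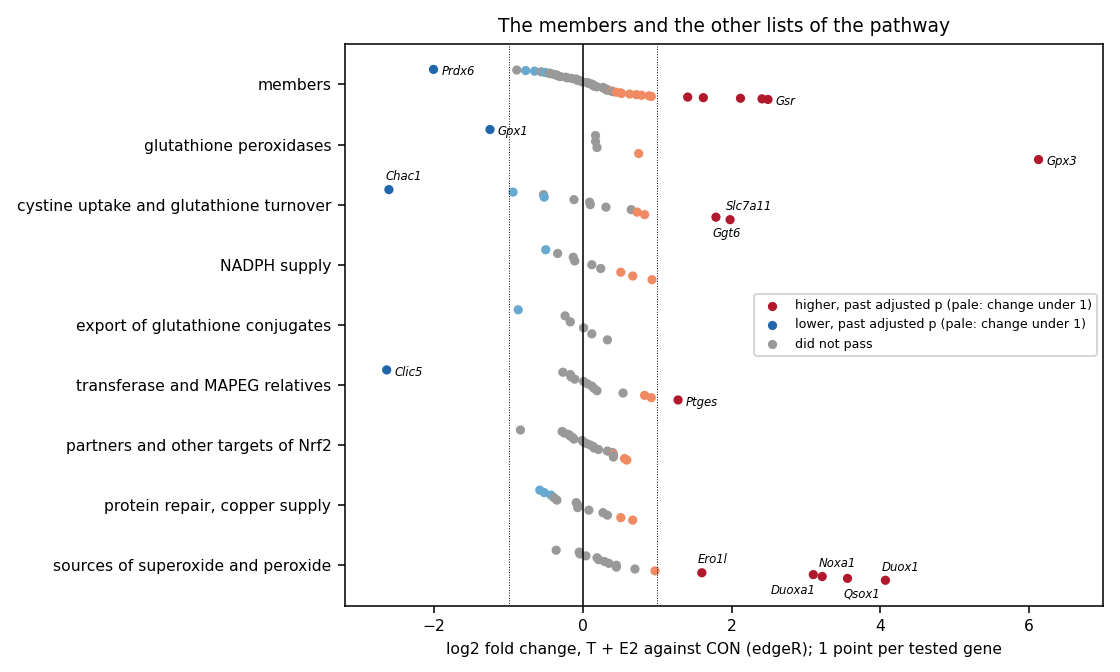
The log2 fold change (T + E2 against CON, edgeR) is plotted for each tested gene, 1 point per gene, with the members in the top row and the 8 pathway lists under them. Gpx3 lies farthest to the right at 6.13, and the points of the Nrf2 list lie between -0.84 and 0.59. The Duox1 point rests on at most 3 counts per CON mouse.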

How the data were processed

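Groups and replicate numbers of the 6 mice were taken from the sample labels, and each mouse was a separate animal. The authors deposited a table of 34745 genes with whole-number read counts per gene and FPKM values, which they computed from those counts, a gene model length and the library total, so that levels compared between genes rest on those lengths. The submitters' processing notes name TopHat, Bowtie2 and HTSeq, and the strand setting is not given in the sources used here. TruSeq RNA libraries were paired-end. Every column of values belonged to one of the 6 mice. Totals of 14816146 to 16555549 counts put the level of 3 counts at 0.181 to 0.202 CPM, and such limits cover counting error only.

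The counts were analysed with edgeR 4.0.16 in R 4.3.3. The filter was filterByExpr, with a minimum count of 10 and a minimum total of 15, scaling was by TMM, and T + E2 was set against CON in the quasi-likelihood F test with Benjamini-Hochberg adjustment over all 15580 tested genes. Genes past both thresholds passed 0.05 on adjusted p and 1 on the absolute log2 fold change. Standard errors were obtained from the log2 fold change and its F value. The study's methods name DESeq2 for this comparison, which was run as an alternative. Summed FPKM was compared by an exact two-sided permutation test, whose smallest p with 3 against 3 mice is 0.1. Similar transcripts were sought by BLAST against GENCODE M21 (GRCm38), in which all 54 members were found, 40 with the same start and end as in the table, at 90% identity or more over 50% of the coding sequence. Promoter windows came from RefSeq (GRCm38.p6) and were matched by symbol for 47 members.

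The members, the lists and the tests were chosen with earlier results of these data known. Every member is accounted for by role. Members past both thresholds are given with each mouse's value, and those past the adjusted p alone with their changes. Of those that did not pass, the names cover the 10 highest by FPKM, glutathione synthesis, Nrf2, superoxide dismutases and genes under the filter, and other names were added after their values were seen. Up to 4 genes with the largest changes that passed are named per pathway list. Alternatives were DESeq2 1.42.0, median-of-ratios scaling, no filter on low counts, limma 3.58.1 on log2(FPKM + 0.1) and log2(FPKM + 1), a block for the replicate number, each mouse left out in turn and, added after seeing the data, replicate 2 of both groups left out. The procedure was tested on simulated data.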

Additional observations from a re-analysis of the deposited data

How the results depend on the processing

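Gsr, Gsta2, Mgst1, Gsta4, Gsto1 and Prdx6 kept their direction and passed the adjusted p in all 13 alternatives run for them, and each alternative's members past both thresholds held these 6. The log2 fold change ran from 2.36 to 2.55 for Gsr and from -2.12 to -1.86 for Prdx6, with adjusted p from 2.75e-85 to 0.000889 and from 3.45e-36 to 0.00214. Prdx4, Gstm5 and Gss also passed the adjusted p in all 13. With each mouse left out in turn, 5 to 6 members were called higher and 1 lower, and 9 to 14 were higher and 2 to 4 lower on adjusted p alone. The lowest counts came without CON replicate 2 (9 and 2), and 2 lower members also remained without T + E2 replicate 1 or replicate 3. Leaving out replicate 2 of both groups, chosen after seeing the data, gave 7 higher and 2 lower members. Here fewer mice entered the fit. In the other pathway lists 8 to 10 genes were called higher and 3 to 5 lower, with 5 without CON replicate 2. The summed counts of Gstm1 and Gstm3 had a log2 fold change of -0.61 to -0.40, with adjusted p of 0.0811 without CON replicate 1, 0.12 without CON replicate 2, 0.123 without T + E2 replicate 1 and 0.0852 without T + E2 replicate 3. Glrx passed in 4 of the 13 alternatives, Gstm1, Txnip and Gstk1 in 6, Hmox1 and Srxn1 in 7, and Txnrd1 in 9. Deviations from the group means correlated at -0.0516, 0.0275 and 0.0463 in same-numbered mice and at -0.1825 to 0.1371 in differently numbered mice. Replicate 2 of both groups held seminal vesicle transcripts, and whether same-numbered mice shared a batch was not tested. With the replicate number as a block, 5 members were called higher and 1 lower, and 11 higher and 3 lower on adjusted p alone, without Gstk1, Hmox1, Srxn1 and Glrx. No value changed direction past the threshold. Gsta1, Gstp2 and Gstt4 were below the filter on low counts. Gsta1 passed both thresholds with limma on log2(FPKM + 0.1), which gave 6 members higher (log2 fold change 1.63, adjusted p = 0.049), and the adjusted p alone with limma on log2(FPKM + 1) (0.40, adjusted p = 0.0298), but did not pass the adjusted p with edgeR without the filter (2.18, adjusted p = 0.119) or DESeq2 (2.25, adjusted p = 0.209).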
